A study of Mus musculus with 4 samples.

Results

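The genes of the circadian clock were examined in kidneys of Th3 mice and in control kidneys. The 10 clock genes Arntl, Clock, Npas2, Per1, Per2, Per3, Cry1, Cry2, Nr1d1 and Dbp were taken by name from the array annotation. They had 18 probes among 41174, and 9 of them were among the 17628 genes tested. Th3 is a model of beta-thalassemia, an inherited anaemia, in which both adult beta-globin genes, beta-major and beta-minor, were deleted. Total kidney RNA of 4 Th3 samples and 4 control samples was hybridised on 4 two-colour arrays, with 1 Th3 and 1 control sample on each. Th3 RNA was labelled with Cy5 for the first 2 arrays and with Cy3 for arrays 3 and 4, so dye orientation and pair of arrays cannot be told apart. The labels call the other group only control. They give no zygosity, age or sex, no hour at which the kidneys were taken, and do not say whether the samples of a group are different animals. The p-values therefore measure the spread between these samples, which may be technical.

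The clock is a loop of transcription that runs with a period of about a day in nearly every cell. BMAL1, the protein of Arntl, pairs with CLOCK or with its relative NPAS2 and binds E-boxes, short DNA motifs in front of its target genes. The PER and CRY proteins are made from such targets, enter the nucleus and repress the activators. REV-ERB alpha, the protein of Nr1d1, represses Arntl, and DBP carries the rhythm to further genes through D-boxes. In mouse kidney, as in liver, the RNAs of Arntl and Npas2 are known to peak at about the opposite time of day from those of Per2, Nr1d1 and Dbp.

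The sequences behind these names show which transcripts were read and which of the loop's motifs stand before them. The array read Arntl, Cry1 and Nr1d1 through the following 60-base probes, printed 5′ to 3′ without capitals. They lie, on mouse build mm8, at chr7:113104645-113104704 (plus strand), chr10:84573549-84573608 (minus strand) and chr11:98585302-98585804 (minus strand). The Nr1d1 probe extends over 503 bases of the genome and so crosses an intron.
Arntl probe: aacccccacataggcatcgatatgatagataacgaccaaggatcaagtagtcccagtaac
Cry1 probe: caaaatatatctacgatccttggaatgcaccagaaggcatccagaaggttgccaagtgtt
Nr1d1 probe: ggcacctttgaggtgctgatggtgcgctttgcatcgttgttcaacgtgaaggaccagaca

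Promoters from RefSeq on build GRCm38.p6 were searched for 9 of the 10 genes, all but Per2, 13 promoters in all, from 250 bases before to 50 after each start. The search covered both strands and looked for the E-box CACGTG, the variant CACGTT, the D-box TTATGTAA or TTACGTAA, the RORE core TAGGTCA or TGGGTCA that REV-ERB alpha binds, and the cAMP element TGACGTCA. Because it reads the same on both strands, CACGTG was counted once. An E-box was found before Per1 and Cry1, against 7.15% of all 32851 promoters of that length. The D-box was found at 2 places before Per3, against 1.06% of all promoters. The variant E-box was found before Cry1, Cry2 and Nr1d1 (4.68% of all promoters), and a RORE core 31 bases after 1 start of Arntl (6.45%). The cAMP element was found in none (1.79% of all promoters). The 250 bases before the start are shown for Per1, which was higher in Th3 kidney, and for Cry1 and Per3, whose ratios ranked the arrays alike; capitals mark CACGTG, the variant on its other strand, and the D-boxes. Per1 is at chr11:69098699-69098948 (plus strand), Cry1 at chr10:85185055-85185304 (minus) and Per3 at chr4:151044666-151044915 (minus). A match describes these letters and not a bound site.
Per1 promoter: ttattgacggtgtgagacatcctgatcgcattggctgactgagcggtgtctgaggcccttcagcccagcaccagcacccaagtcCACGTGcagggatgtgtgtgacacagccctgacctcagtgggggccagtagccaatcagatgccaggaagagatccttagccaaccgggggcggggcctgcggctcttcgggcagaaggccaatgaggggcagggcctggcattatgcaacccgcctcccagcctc
Cry1 promoter: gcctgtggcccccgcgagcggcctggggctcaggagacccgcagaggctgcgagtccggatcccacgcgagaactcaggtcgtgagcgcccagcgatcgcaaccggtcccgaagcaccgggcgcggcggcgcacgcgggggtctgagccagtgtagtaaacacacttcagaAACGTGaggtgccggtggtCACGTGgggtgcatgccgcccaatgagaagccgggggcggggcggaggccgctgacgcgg
Per3 promoter: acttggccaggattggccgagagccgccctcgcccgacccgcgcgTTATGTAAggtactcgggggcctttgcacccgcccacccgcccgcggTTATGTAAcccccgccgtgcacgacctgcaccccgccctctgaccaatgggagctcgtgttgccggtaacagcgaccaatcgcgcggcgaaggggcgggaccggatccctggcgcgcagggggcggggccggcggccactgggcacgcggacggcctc

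As a check of the labels, the deleted beta-globin gene Hbb-bt had log2 ratios of Th3 over control of -3.13, -3.16, -3.93 and -4.02 on arrays 1 to 4. The scanner called 62.4% to 72.7% of the spots of a channel well above background and none saturated, and precision is limited by the 4 arrays. Across genes the ratios of arrays 1 and 2 correlated at 0.67, those of arrays 3 and 4 at 0.71, and those of the other pairs of arrays at 0.43 to 0.53. The Th3 samples of arrays 2 and 3 lay closest together of all samples, with a root mean square log2 difference of 0.131, against 0.179 to 0.228 for the other Th3 pairs and 0.169 to 0.269 for control pairs. The labels list them as separate samples and they were kept so. Whether they are 1 RNA labelled in both dyes cannot be told from these values. For the clock genes, ratios without array 2 or 3 are given below at least where the call or sign differed.

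Of the 9 clock genes tested, Dbp was lower and Per1 higher in Th3 kidney, and the other 7 did not pass. The 2 calls among 9 genes stand against 21.5% of all genes called (10.9% higher and 10.6% lower), so the share called is near the background. With median centring in place of loess the background was 1938 genes higher and 1144 lower, against 1927 and 1866 here. The median log2 ratio was 0.07 over the 9 clock genes and 0.0013 over all genes. A gene was called at an adjusted p under 0.05 in a limma fit on log2 ratios with a Th3 term and a dye term, and every adjusted p of a gene below is from that fit, with Benjamini-Hochberg adjustment over all genes.

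**Figure D1:**
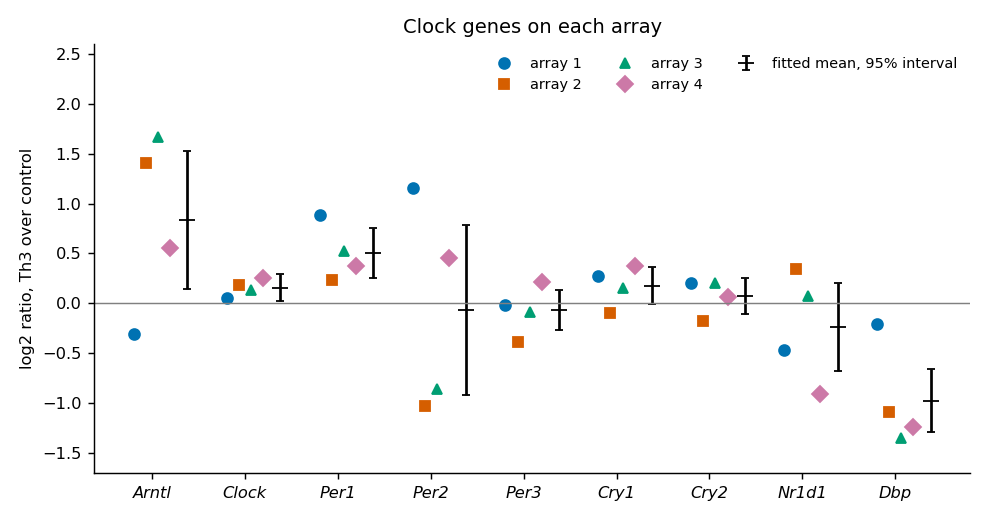
Log2 ratio of Th3 over control (vertical axis) of the 9 tested clock genes on each of the 4 arrays (symbols), with the fitted mean and its 95% interval. Dbp lies below 0 on all 4 arrays and Per1 above 0 on all 4, while Arntl and Per2 span from -0.30 to 1.67 and from -1.03 to 1.16.

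Among the activators, Arntl varied most between arrays. Its log2 ratio of Th3 over control was -0.30, 1.41, 1.67 and 0.56 on arrays 1 to 4. Array 1 alone was below 0. The mean was 0.83 ± 0.89 (SD, n = 4 arrays; 95% interval 0.14 to 1.52), a 1.78-fold level that did not pass (adjusted p = 0.0869). Without array 1 the ratio was 1.26 with an adjusted p of 3.5e-06, and it was 0.40 without array 2 (0.0602) and 0.55 without array 3 (0.304). With 1 array left out, 1 residual degree of freedom remains. Such adjusted p-values, for every gene, rest more on variances pooled over genes than on the spread of the remaining arrays. Arntl also passed with median centring (0.0457) and with separate channels (0.0379). The normalised log2 signal of Arntl was 8.23, 9.42, 9.52 and 8.64 in the Th3 samples of arrays 1 to 4, against 8.54, 8.01, 7.85 and 8.08 in the control samples. Th3 samples 2 and 3 stood apart above all others, Th3 sample 1 lay among the controls, and the highest control was that of array 1, so the groups overlapped.

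Clock, the partner of BMAL1, changed little but in 1 direction. Its ratio was 0.05, 0.18, 0.13 and 0.26 on arrays 1 to 4 by its brightest probe, a mean of 0.16 ± 0.09 (SD, n = 4 arrays; adjusted p = 0.100). The other three Clock probes had means of 0.10 to 0.19, and every probe was above 0 on every array. By the brightest probe the signal was 10.70, 10.81, 10.69 and 10.82 in Th3 samples, against 10.65, 10.63, 10.56 and 10.56 in control samples, with no overlap between the groups. A dimmer probe overlapped, at 7.48 to 8.13 in Th3 and 7.30 to 7.89 in control samples. Another overlapped slightly, with its lowest Th3 and highest control signal both at 6.86, and the remaining probe did not overlap. Clock passed only with separate channels (adjusted p = 0.0241). All 4 Th3 levels lay above all 4 control levels for 1 of the 9 clock genes, Clock, against 11.4% of all genes, and all below for 1, Dbp, against 9.61%.

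Npas2, the relative of Clock, was not tested, because its probe was well above background in Th3 RNA on 3 arrays and in control RNA on 1. Its ratios after background correction with an offset were 0.11, 0.15, 0.11 and 0.05, and with the scanner's processed signals they were 0.24, 2.62, 1.18 and -0.20. The offset draws the ratios of dim probes towards 0. The processed ratios were highest on arrays 2 and 3, where Arntl was also highest.

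Per1, a repressor that is also induced by glucocorticoids and cAMP, was higher in Th3 kidney on each array. Its ratio was 0.88, 0.24, 0.52 and 0.37, a mean of 0.50 ± 0.28 (SD, n = 4 arrays) or 1.42-fold (adjusted p = 0.0199). The signal was 11.38, 11.60, 11.96 and 11.78 in Th3 samples, against 10.49, 11.36, 11.43 and 11.41 in control samples. The control of array 1 was the lowest sample by a wide gap, and Th3 sample 1 lay within the control range, so the groups overlapped. The mean ratio was 0.56 in arrays 1 and 2 and 0.45 in arrays 3 and 4. Per1 no longer passed when pairs of arrays entered as a random block (0.0582), without array 3 (0.0780) or without array 4 (0.0522). It passed without array 1 at a ratio of 0.34 (0.0165) and without array 2 at 0.67 (3.6e-05). In the authors' deposited table Per1 had a signed fold of 1.42 and an adjusted p of 0.0340.

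Per2 had the widest spread of the clock genes, and its mean stood close to 0. Its ratio was 1.16, -1.03, -0.85 and 0.45 on arrays 1 to 4, positive on arrays 1 and 4 and negative on arrays 2 and 3. The mean was -0.07 ± 1.05 (SD, n = 4 arrays; adjusted p = 0.916), which leaves an interval from -0.92 to 0.79. The second, dimmer Per2 probe had ratios of 0.02, -0.10, -0.35 and 0.21, with the same sign on every array. The signal was 10.15, 9.43, 9.27 and 10.20 in Th3 samples, against 8.99, 10.46, 10.13 and 9.74 in control samples. The control samples reached both higher and lower than the Th3 samples, and the lowest of the 8 was the control of array 1. The mean of Per2 followed whichever array was left out: it was -0.61 without array 1 (adjusted p = 0.0110), 0.48 without array 2 (0.0429), 0.26 without array 3 (0.710) and -0.39 without array 4 (0.546).

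None of the other repressors passed the test. Per3 had ratios of -0.01, -0.39, -0.09 and 0.21, and a mean of -0.07 ± 0.25 (adjusted p = 0.603). Its mean turned to 0.025 without array 2 and to 0.0057 without array 3. Cry1, a strong repressor of the activators, had 0.28, -0.09, 0.15 and 0.38, and a mean of 0.18 ± 0.20 (adjusted p = 0.157). Its probe was dim, with control RNA well above background on 3 of the 4 arrays, and with the scanner's processed signals its ratios were 2.19, -1.03, 0.48 and 1.48. The processed ratios of Per3 ran from -1.005 on array 2 to 0.39 on array 4, wider than after the offset as well. Cry2 had 0.20, -0.18, 0.21 and 0.07, and a mean of 0.07 ± 0.18 (adjusted p = 0.522; SD and n = 4 arrays for all 3 genes). Array 2 was the lowest array for every one of the 5 repressors. The log2 signal of Per3 ran from 7.39 to 7.68 in Th3 samples and from 7.47 to 7.86 in control samples. For Cry1 it ran from 6.51 to 6.85 in Th3 and from 6.40 to 6.60 in control samples, and for Cry2 from 8.17 to 8.38 in Th3 and from 7.96 to 8.38 in control samples. The groups overlapped for all 3 genes.

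Nr1d1, the repressor of Arntl, changed sign between arrays. Its ratio was -0.47, 0.35, 0.08 and -0.91, negative on arrays 1 and 4 and positive on arrays 2 and 3, with a mean of -0.24 ± 0.56 (SD, n = 4 arrays; adjusted p = 0.400). The signal was 9.16, 9.30, 9.41 and 8.51 in Th3 samples, against 9.63, 8.95, 9.34 and 9.42 in control samples. Th3 sample 4 was the lowest of the 8. Without array 2 the mean was -0.44 and passed (adjusted p = 0.0277), and without array 4 it was 0.0083 (0.977). The dimmer Nr1d1 probes did not follow the brightest one on every array: one had -0.07, 0.05, -0.19 and -0.15, the other 0.09, 0.04, -0.06 and 0.03.

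Dbp, the output gene, was lower in Th3 kidney on each array. Its ratio was -0.21, -1.09, -1.35 and -1.24 on arrays 1 to 4. Array 1 was close to 0, and the other three lay close together. The mean was -0.97 ± 0.52 (SD, n = 4 arrays; 95% interval -1.29 to -0.65), so Th3 kidney held 50.9% of the control level (adjusted p = 0.00597). The signal was 14.28, 13.37, 13.42 and 13.41 in Th3 samples, against 14.49, 14.46, 14.78 and 14.66 in control samples, with no overlap. Dbp passed under each of the 17 other settings, at ratios from -1.20 to -0.75. In the authors' deposited table its signed fold was -1.97 with an adjusted p of 0.0181. In whole tissue, fewer cells that express a gene and less of its RNA per cell cannot be told apart.

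**Figure D2:**
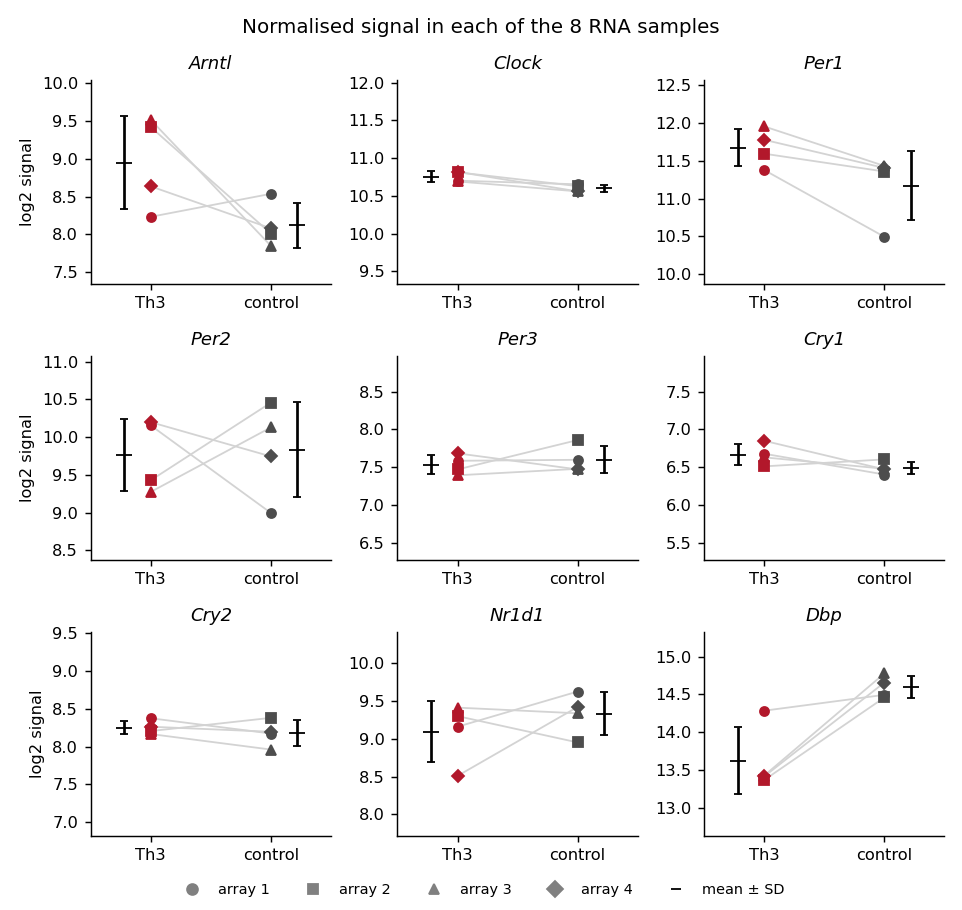
Normalised log2 signal (vertical axis, the same span in each panel) of the 9 tested clock genes in the 4 Th3 samples (left) and the 4 control samples (right), with lines joining the samples of an array and the mean ± SD beside each group. The groups do not overlap for Dbp and Clock, and the Per2 lines cross, with control sample 1 lowest at 8.99.

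The ratios were also compared between the 2 pairs of arrays. The dye or pair term was called for 0 of the 9 clock genes, against 0.993% of all genes, at an adjusted p under 0.05 in limma. At an unadjusted p under 0.05, 1 clock gene passed, which was Dbp (-0.65 in arrays 1 and 2, -1.30 in arrays 3 and 4), against 17.6% of all genes. With median centring, which does not follow signal strength, the term was called for 6 of the 9, against 72.3% of all genes. Without array 2 it was called for Arntl, Per2 and Dbp, against 2.84% of all genes. For Arntl, Per2 and Nr1d1 the like arrays were 2 and 3, which are of opposite dye.

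Whether activators and repressors ran in opposite directions was asked array by array. On arrays 2 and 3 Arntl stood at 1.41 and 1.67 and Per2 at -1.03 and -0.85, and on array 1 the signs were reversed, at -0.30 for Arntl and 1.16 for Per2. On array 4 both were above 0, at 0.56 and 0.45. Arntl minus Per2 was -1.46, 2.44, 2.52 and 0.10 on arrays 1 to 4. The number of the 5 repressors with a sign opposite to that of Arntl was 4, 4, 2 and 0 on arrays 1 to 4, and with a sign opposite to that of Clock it was 1, 4, 2 and 0. Most repressors were thus opposite in sign to Arntl on arrays 1 and 2, and none was on array 4.

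Taken as groups, the activators (Arntl and Clock) minus the repressors had a difference of median log2 ratios of -0.40, 0.97, 0.75 and 0.03, a mean of 0.34 ± 0.64 (SD, n = 4 arrays). Activators minus the E-box targets Per1, Per2, Per3, Nr1d1 and Dbp gave -0.11, 1.19, 0.99 and 0.19, a mean of 0.56 ± 0.62. On every array the median of these targets was the ratio of Per3, at -0.01, -0.39, -0.09 and 0.21. The activator median was the mean of Arntl and Clock, so this difference sets that mean against Per3. Both differences were positive on 3 of 4 arrays and smaller than or close to their own spread. Neither has a p, since the genes were chosen with results known, and over 4 arrays an exact sign-flip test could not go below 0.125 (two-sided). The first difference was 0.59 without array 1, 0.13 without array 2 and 0.20 without array 3, and with no filter on dim probes, which adds Npas2 to the activators, it was -6.1e-05. The second was 0.36 without array 2, 0.22 with no filter on dim probes and 0.86 with the scanner's processed signals. The array order from high to low ratio was 3, 2, 4, 1 for Arntl and 1, 4, 3, 2 for Per2. Nr1d1 ran 2, 3, 1, 4, the exact reverse of the order 4, 1, 3, 2 shared by Cry1 and Per3.

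**Figure D3:**
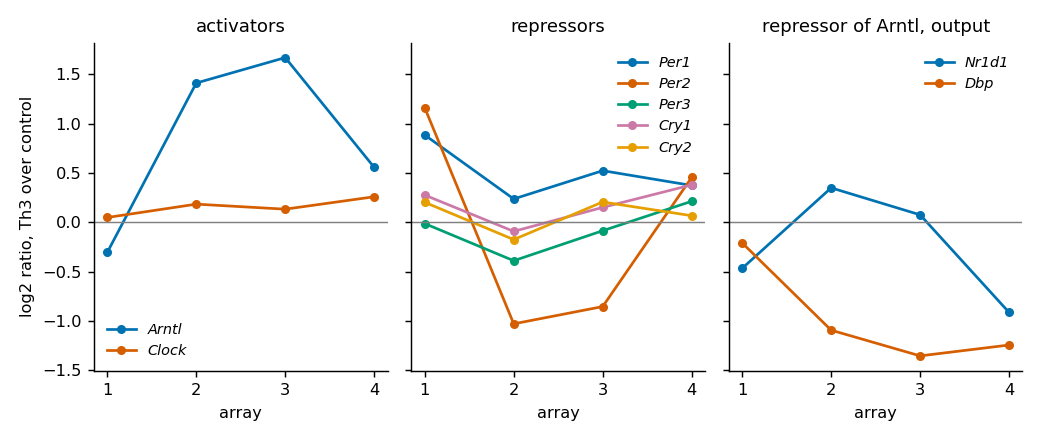
Log2 ratio of Th3 over control (vertical axis) across arrays 1 to 4 (horizontal axis) for activators, repressors, and Nr1d1 with Dbp; lines only join the values of a gene, as the arrays have no order. Arntl is highest on arrays 2 and 3, where Per2 is lowest, and on array 4 both lie above 0.

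The 8 RNA samples allowed the same question over single-channel signals, a comparison added after the ratios had been seen. The 2 samples of an array share its slide position and their independence is not stated. Arntl and Per2 had Pearson's r = -0.63 (exact permutation p = 0.0982, two-sided; 0.355 after Benjamini-Hochberg adjustment over 36 pairs of clock genes) and Spearman's rho = -0.50 (exact permutation p = 0.216). Without Th3 samples 2 and 3, the samples farthest from the median of Arntl, r was -0.43, so the relation rests in part on them. With group means removed r was -0.82 (exact permutation p = 0.0226, adjusted 0.200).

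Arntl had r below 0 with 3 of the 5 repressors, and with all 5 once group means were removed. For Clock with group means removed r was below 0 with 2 of 5. Clock and Dbp separate the 2 groups, so no r over all 8 samples is given for their pairs, and 4 samples are too few for an r within a group. The strongest negative relation among the other pairs joined Cry1 and Nr1d1, at r = -0.88 (exact permutation p = 0.00575, adjusted 0.0690) and rho = -0.81 (exact permutation p = 0.0218). It was -0.48 without the 2 samples farthest from the Cry1 median, and the Cry1 probe was dim. Per2 and Nr1d1, both E-box targets, also had a negative r of -0.72 (exact permutation p = 0.0332, adjusted 0.299) and rho of -0.86 (exact permutation p = 0.0107), with r = -0.55 without the 2 farthest samples. No pair of the 36 passed after adjustment, with or without group means (0 of 36 each); unadjusted, 4 and 6 pairs had an exact permutation p under 0.05. Without the pairs of Clock or Dbp, 2 of 21 pairs did over all 8 samples, those of Nr1d1 with Cry1 and with Per2. Over these samples an opposite course of activators and repressors did not pass a test, and the missed threshold does not show that there is none.

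**Figure D4:**
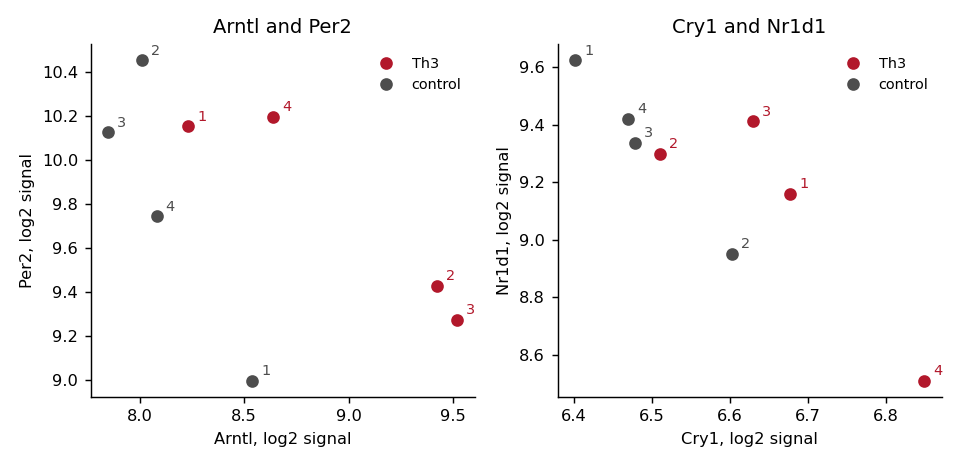
Normalised log2 signal of Per2 against Arntl (left) and of Nr1d1 against Cry1 (right) in the 4 Th3 and 4 control samples, numbered by array. Th3 samples 2 and 3 combine the highest Arntl with low Per2, control sample 1 has the lowest Per2 at 8.99, and Th3 sample 4 has the highest Cry1 and the lowest Nr1d1.

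Of 12 further genes of the clock loop, 10 were tested, and Arntl2 and Rorb were not. In limma 3 were higher, 0 lower and 7 did not pass, with a median log2 ratio of 0.03. Of all genes, 10.9% were called higher and 10.6% lower. Nfil3, a repressor at D-boxes and so the opponent of DBP, was higher on each array, at 0.63, 0.29, 0.71 and 1.44 (mean 0.77, adjusted p = 0.00906). Hlf, an activator at D-boxes like DBP, was also higher, at 0.48, 0.26, 0.67 and 0.69 (mean 0.52, adjusted p = 0.00337). Dbp and its relative Hlf, both of the PAR bZIP family, thus differed from control in opposite directions, and the third relative, Tef, had -0.19 (adjusted p = 0.213). Bhlhe40, a repressor that competes at E-boxes, was higher at 0.42, 0.04, 0.28 and 0.52 (mean 0.32, adjusted p = 0.0369).

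The other loop genes did not pass. Nr1d2, the relative of Nr1d1, had 0.04, -0.46, -0.25 and -0.44 (mean -0.28, adjusted p = 0.0717). Ciart, a repressor of the activators, had 0.55, -0.37, -0.64 and -0.44 (mean -0.23, adjusted p = 0.294), high on array 1 only, as Per2 was highest there. Rora stood at 0.17, Timeless at 0.12 and Bhlhe41 at -0.06, none past the test.

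Of 20 tested genes listed as modifiers of the clock, Nampt alone passed, at a mean ratio of 0.45 (adjusted p = 0.0165). Nampt, an enzyme of NAD synthesis, was listed among the output genes as well. Of all genes, 21.5% were called in either direction. Of 27 tested output genes, 7 were higher and 3 lower, with a median of 0.07, against 10.9% and 10.6% of all genes. Cirbp, a cold-inducible RNA-binding protein, was at 0.65, 2.27, 1.19 and 0.67 (mean 1.19, adjusted p = 0.0179). Sgk1, a kinase that acts on sodium transport, averaged 0.67 and Lonrf3 0.60. Coq10b, a gene of coenzyme Q handling, was at 0.05, -1.21, -0.88 and -0.97 (mean -0.75, adjusted p = 0.0319), near 0 on array 1 as Dbp was. Por, the reductase of cytochrome P450 enzymes, averaged -0.34, and Noct, a rhythmic regulator of RNA and of cofactors, -0.24.

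Because Per1 answers to glucocorticoids, the list of glucocorticoid-induced genes was set beside it. Of 14 tested, Per1 included, 9 were higher and 0 lower, with a median log2 ratio of 0.52, against 10.9% of all genes called higher. The 5 that did not pass were Klf9 at 0.15, Tsc22d3 at 0.12, Cdkn1a at -0.03, Mt1 at -0.17 and Mt2 at -0.37. Fkbp5, counted as higher at an adjusted p of 0.0496 in limma, was at 1.79, 0.77, -0.28 and -0.15 on arrays 1 to 4. Ddit4, an inhibitor of the growth kinase mTORC1, averaged 0.96, the phosphatase gene Dusp1 0.76 and the iron-siderophore binder Lcn2 0.74 (adjusted p = 0.00189, 0.0165 and 0.0294 in limma). Of 13 tested immediate early genes 4 were higher and 2 lower, against 10.9% and 10.6% of all genes. Nr4a1 averaged 0.86 and Zfp36 0.52, and Egr2 -0.34 and Atf3 -0.33. The part of glucocorticoids in the ratio of Per1 was not tested.

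Markers of other tissues moved between the groups as well. Beside each count below stand 10.9% of all genes called higher and 10.6% called lower. Of 6 tested liver markers 5 were higher, with medians of 0.91, 0.29, 0.61 and 0.66 on arrays 1 to 4 and summed normalised signals of 5770 to 8424 in Th3 samples and 2395 to 4546 in control samples. Of 8 tested macrophage markers 7 were lower, with medians of -0.07, -0.25, -0.68 and -0.87 on arrays 1 to 4 and summed signals of 11242 to 21637 in Th3 and 13675 to 35648 in control samples. Of 8 lymphocyte markers 6 were lower, with medians of -0.13, -0.10, -0.99 and -0.59 on arrays 1 to 4. Their sums were 1990 to 2329 in Th3 and 2536 to 9336 in control samples. The dye or pair term was called for 2 macrophage, 2 lymphocyte and 1 loop or distal tubule marker, against 0.993% of all genes. Of 8 fat markers 3 were higher, with means of 1.00 for Adipoq, 0.77 for Plin4 and 0.64 for Retn. Ucp1 and Cidea were the 2 lower ones, at -3.40 and -1.11, so the list did not move as 1 set. Its medians were 0.45, 0.99, 0.52 and -0.54 on arrays 1 to 4. The sums were 77295 to 102940 in Th3 and 35672 to 134100 in control samples. Of 7 adrenal markers 5 were not among the genes tested, the cortical enzymes Cyp11b1 and Cyp21a1 among them, and neither of the 2 tested passed. Among markers of the kidney itself, all 7 of the proximal tubule were tested, and 4 were lower. Of 6 collecting duct markers 2 were higher and 0 lower, with sums of 44962 to 61834 in Th3 and 33239 to 48876 in control samples. Of 5 loop and distal tubule markers 1 was lower and 0 higher, and 0 of 4 podocyte markers were called. By these medians the liver markers ranked the arrays as Per2 did, and the fat markers as Nr1d1 did. The macrophage and lymphocyte markers ranked them as no tested clock gene did. Since 4 arrays allow few orders, and the matches were seen afterwards, a shared order carries little weight. The part of these tissues in the clock gene ratios was not tested.

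The genes whose signal over the 8 samples was most like that of Dbp, by Pearson's r among 17605 genes, were Nthl1 (0.990), Mfng (0.980), Ndufb7 (0.973), Cldn19 (0.970) and Ccdc92 (0.969). These ranged in mean log2 ratio from -0.14 for Nthl1 to -0.39 for Ccdc92, smaller differences than that of Dbp. For Arntl they included Stra6l (0.982), Fam20a (0.963), Zbtb22 (0.960) and Arg2 (0.955). No clock gene was among either set, and the values are a description of likeness over samples that also differ by group.

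**Figure D5:**
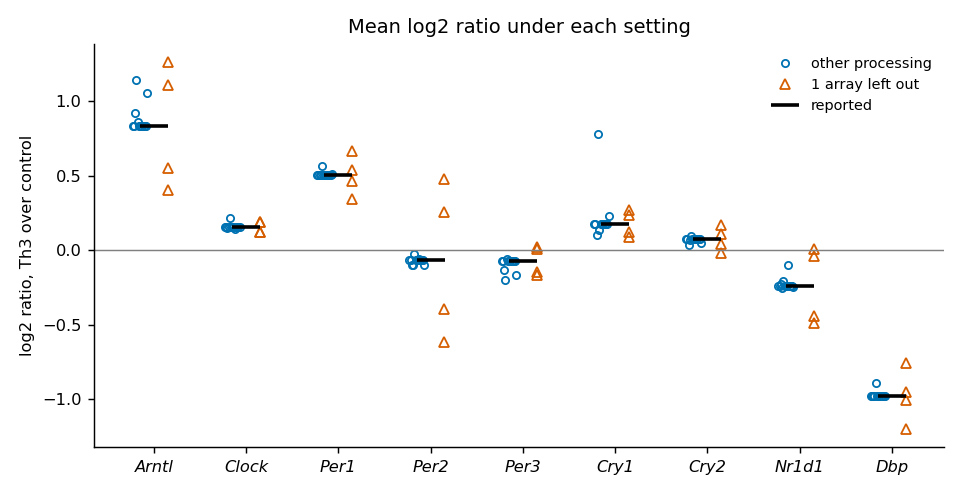
Mean log2 ratio of Th3 over control (vertical axis) of each tested clock gene as reported (bar), under other processing (circles) and with 1 array left out (triangles). Dbp stays below 0 from -1.20 to -0.75 and Per1 above 0, while Per2 lies between -0.61 and 0.48 depending on the array left out.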

How the data were processed

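Each of 4 Agilent arrays (design 014868, 2 colours) held Th3 and control kidney RNA. Per the labels' protocols, total RNA was amplified linearly from an oligo-dT primer and labelled as cRNA. Spot and local background intensities, raw as Agilent Feature Extraction 9.5.3.1 wrote them, are in the scanner files per the file headers, beside processed intensities and spot flags. The deposited log10 ratio of red over green served to check each ratio's direction. A combined table by the authors gives log2 ratios for every array, already turned to Th3 over control, with a normalization that no source used here states. The same deposited table has a signed fold, treated as a score, and an adjusted p-value of an unnamed test.

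Signals were processed with R 4.3.3 and limma 3.58.1. Mean signals were corrected with normexp (offset 50) and normalized by loess (span 0.3, 4 iterations). Outlier spots, at most 186 on an array, were set to missing, and repeated spots were averaged. A probe was kept if well above background on all 4 arrays of Th3 or of control, with a value on at least 3 arrays. Each gene was read through its brightest probe of those kept. Gene names came from RefSeq tables of GRCm38.p6. Ratios were fitted with lmFit and eBayes on a Th3 and a dye term (2 residual and 4.52 prior degrees of freedom), and Benjamini-Hochberg adjusted p-values under 0.05 over 17628 genes were called. A ± is the SD over arrays. Single-channel signals were scaled between arrays with Aquantile. The fit was tested on simulated data. Slide and scan date, 1 of each, could not be tested. Pairs were tested with exact permutation, within groups where group means were removed.

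The clock genes and gene lists were chosen with earlier results of these data known. Named are the 10 clock genes, the tested genes of the clock loop, up to 3 called increases and 3 called decreases of each further list, and the 5 genes most like Dbp and Arntl, clone names passed over; some genes that this rule names are not reported here. Alternatives changed background correction, normalization, filter, dye term, block, channels, weights, variance settings, probe rule or values, or left out 1 array.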

Additional observations from a re-analysis of the deposited data

Results flagged for a closer look

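Among 61 sets of 4 values examined, 3 held a sample far from the others, and chance marks about 1 set in 20. For Per1 the control sample of array 1 had a log2 signal of 10.495, and the other three controls lay between 11.36 and 11.43. For Dbp the Th3 sample of array 1 had a log2 signal of 14.283, and the other three Th3 samples lay between 13.37 and 13.42. Without array 1 the log2 ratio of Per1 was 0.34 (adjusted p = 0.0165 in limma) and that of Dbp -1.20 (adjusted p = 2.0e-08 in limma). For the phosphatase gene Dusp1 the ratio on array 4 was 1.5527, and the others lay between 0.38 and 0.56.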

How the results depend on the processing

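Of the clock genes, Dbp kept its call under all 17 other settings. The number of clock genes called higher, 1 as reported, was 0 with array pairs as a random block, 2 with median centring and 3 with separate channels, and 0 to 2 when 1 array was left out. The number called lower, 1 as reported, was 1 to 2 with 1 array left out. The pair term was called for 6 of 9 clock genes with median centring (72.3% of all genes), and for 0 to 3 with 1 array left out; the 3, without array 2 (2.84% of all genes), were Per2, Arntl and Dbp. Over all genes, 1102 were higher and 888 lower without the dye term, 645 and 554 with the random block; 2990 were higher with separate channels and 1144 lower with median centring. With 1 array left out the mean log2 ratio reversed for Per2 (-0.61 to 0.48), Per3 (-0.16 to 0.025), Cry2 (-0.020 to 0.17) and Nr1d1 (-0.49 to 0.0083). Leaving out an array leaves 1 residual degree of freedom and an uneven dye balance. The adjusted p-values of those fits thus rest mainly on variances pooled over genes. For the other changes the cause was not tested. Cry1 was not tested with the filter on both channels. With processed signals the single-channel difference was 0.77 for Cry1 and -0.21 for Per3. The random-block correlation was 0.18.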
